A study of Mus musculus with 145 samples.

Results

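Transposon insertions in Zfx, an X-linked gene that encodes a zinc finger transcription factor, were described in mouse mammary tumours. The members were the mapped sites inside the deposited region of the gene (identifier 22764, mm10 chrX:94074631-94125407, minus strand, 50.8 kb), which held 42 of 198107 sites. Of these 42 sites, 41 had reads and 25 had at least 10 reads in the tumour to which they were assigned. A site read in more than 1 tumour was assigned, for each strand, to the tumour that held most of its reads, and a tumour counted as hit when a site assigned to it had at least 10 reads. By this rule Zfx was hit in 18 tumours, 11 of 51 resistant and 7 of 94 untreated. Zfx was chosen by its number of insertions in these same libraries, which placed it among the recurrently hit genes of both sample groups, so that number is a description and carries no test. The contrast between the groups was not the ground of that choice, but it is drawn from the same insertions and is not independent of it. Orientation, position along the gene and read rank were not part of the choice.

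All tumours of both groups came from mice that carried WAP-Cre, LSL-PB, LSL-PIK3CA(H1047R) and ATP1. Cre was driven by the WAP promoter, which is switched on in mammary epithelium during late pregnancy, and the mice were mated to start it. Cre turned on both the piggyBac transposase (PB) and PIK3CA H1047R, an activated form of the catalytic subunit of PI3K alpha, and ATP1 is the transposon that the transposase moves. The untreated group had 94 libraries from 23 mice and the resistant group 51 from 25 mice, each counted as a tumour. Untreated 58 and 88, neither of them hit in Zfx, share a mouse and gland in their titles and may be 1 tumour. Resistant tumours came from animals dosed daily with 30 mg/kg of BYL719 (alpelisib), a PI3K alpha inhibitor, from a volume of 250 mm3, and had grown over at least 3 consecutive measurements during the 3 weeks of dosing used for that call. Many mice gave several tumours, and tumours of a mouse were not independent of each other. The libraries were made from DNA of whole mammary fat pad tumours. Such DNA holds no expression, so the tissue label could not be checked against marker genes, and animal ages and sexes were not used here.

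ZFX binds DNA near transcription start sites through its array of zinc fingers, activates transcription there, and is known for a role in the self-renewal of embryonic and haematopoietic stem cells. Its closest relatives in the mouse are the Y-linked Zfy1 and Zfy2, the autosomal Zfa, and Zfp711 on the X chromosome. The piggyBac transposon inserts at the bases TTAA, and ATP1 carries a promoter together with splice acceptors and polyadenylation signals. It can therefore drive a gene from an insertion in the orientation of that gene, and it can interrupt a transcript in either orientation.

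The contexts of the sites with the most reads in each group are shown so that they can be compared with the target motif. Each is the deposited context of 8 bases, TTAA is in capitals, and the name gives the tumour and the mm10 position on chromosome X.
resistant 8, 94087723 (+): TTAAagta
resistant 38, 94082706 (+): TTAAatat
resistant 48, 94090811 (+): TTAAcaag
resistant 15, 94093285 (-): ttagagga
untreated 3, 94097683 (-): TTAAtgta
untreated 56, 94113035 (-): tagtTTAA
untreated 32, 94074634 (-): TTAAgtta
untreated 29, 94091305 (+): TTAAtggg
Among the 25 sites of at least 10 reads, 23 began with TTAA (17 of the 18 resistant and 6 of the 7 untreated sites), against 96.3% of all 101066 such sites in the series. In untreated 56 the motif lay 4 bases further along the context, and in resistant 15 the context did not hold it.

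The starts nearest to the upstream end of the deposited region are shown because no insertion fell on them. The RefSeq (GRCm38.p6) promoter table gave windows from 250 bases before to 50 bases after each of 2 Zfx starts, both on the minus strand, and they are printed 5′ to 3′ with TTAA in capitals.
promoter 1, chrX:94123718-94124017: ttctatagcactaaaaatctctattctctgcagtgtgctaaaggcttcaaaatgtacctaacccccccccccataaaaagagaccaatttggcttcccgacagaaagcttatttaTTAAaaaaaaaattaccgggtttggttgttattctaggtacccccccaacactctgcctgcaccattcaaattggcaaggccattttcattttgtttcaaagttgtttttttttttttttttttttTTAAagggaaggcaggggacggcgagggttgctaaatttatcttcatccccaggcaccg
promoter 2, chrX:94123358-94123657: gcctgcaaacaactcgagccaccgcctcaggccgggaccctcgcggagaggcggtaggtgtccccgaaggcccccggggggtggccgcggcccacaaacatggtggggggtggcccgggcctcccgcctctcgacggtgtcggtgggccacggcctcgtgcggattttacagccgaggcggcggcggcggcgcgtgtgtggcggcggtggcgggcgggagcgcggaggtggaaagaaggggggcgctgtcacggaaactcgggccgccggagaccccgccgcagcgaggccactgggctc
The first window held 2 TTAA and the second 0, searched as TTAA, which reads the same on both strands. Of 32851 windows of this length in the table, 52.4% held the motif. Neither window held a listed site. RefSeq extends Zfx upstream to 94150645, past both of these starts, and no window at that end was used here. The nearest site of at least 10 reads lay 2756 bp into the gene from the start at 94123407 (untreated 40), and 0 of the 42 sites lay in the 2000 bp by which the deposited region extends upstream of that start.

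Zfx insertions lay along most of the gene body in both groups. Positions below are distances from the start at 94123407 in the direction of transcription. The 18 sites in resistant tumours lay 4.80 to 41.2 kb from the start, with a median of 24.2 kb. The 7 sites in untreated tumours lay 2.76 to 48.8 kb from it, with a median of 25.7 kb. The ranges of the groups thus overlapped over most of the gene. In steps of 10 kb from the start, resistant tumours held 1, 6, 3, 5 and 3 sites and untreated tumours 2, 1, 1, 2 and 1. No gene model of the files' build was available, so sites were not assigned to exons or introns.

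**Figure D1:**
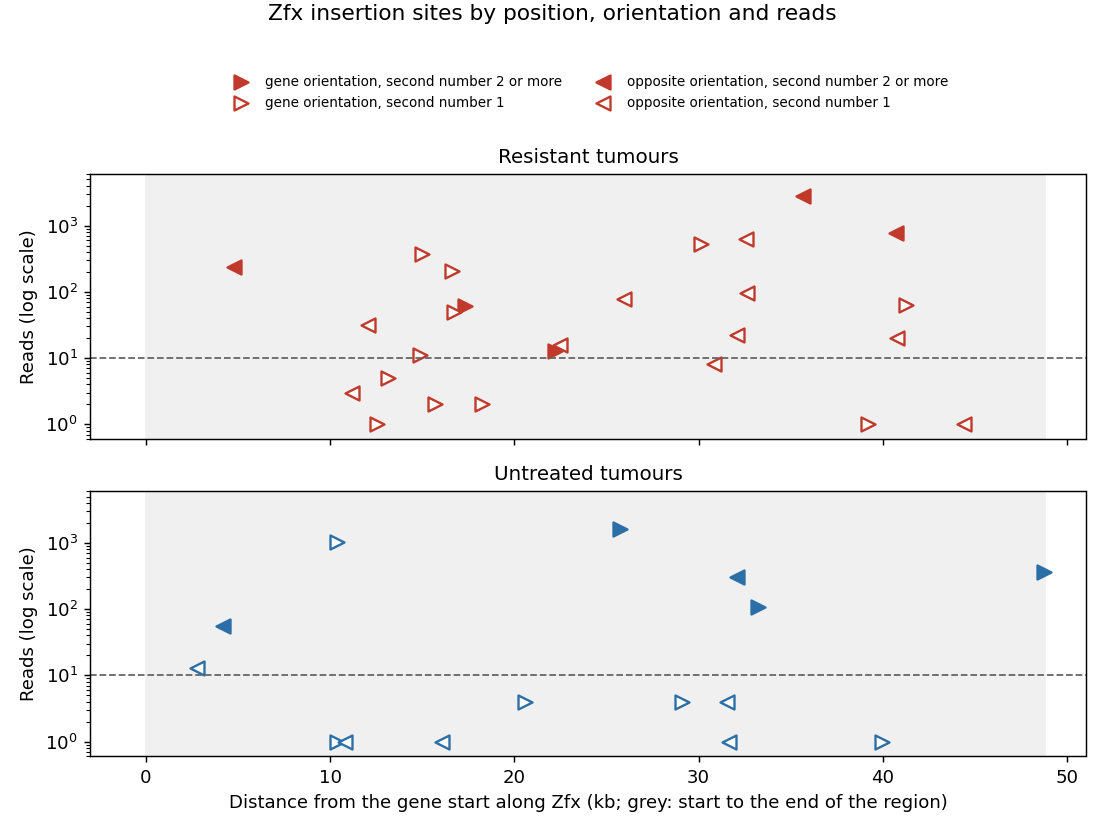
Each of the 41 Zfx sites with reads by distance from the gene start (x axis, kb) and reads in the tumour to which it was assigned (y axis, log scale), with resistant tumours above and untreated tumours below. Triangles pointing right are in the orientation of the gene and those pointing left are opposite, the dashed line marks 10 reads, and filled symbols have a second deposited number of 2 or more. Sites of both orientations lie along the gene body in both groups, and none lies before the start.

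Several insertions of different mice fell close together. The 5 closest neighbours in a row lay within 1118 bp (94090207 to 94091325, 32.1 to 33.2 kb from the start), and they came from 5 tumours of 4 mice, 3 of them resistant and 2 untreated. Of these 5 sites, 4 were opposite to the gene. The sites of resistant 33 and resistant 48 were 14 bp apart, those of untreated 29 and resistant 10 were 20 bp apart, and those of resistant 32 and resistant 38 were 81 bp apart, each pair on the plus strand. The longest stretch between neighbouring sites was 7541 bp, beside the site nearest to the end of the gene.

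The orientations of the Zfx sites were split nearly evenly. Of the 25 sites, 12 were in the orientation of the gene and 13 opposite (48% in gene orientation, 95% Clopper-Pearson interval 27.8 to 68.7). An exact binomial test against an even split gave p = 1 and adjusted p = 1 over 879 genes with at least 10 sites, of which 0.228% passed at an adjusted p under 0.05 and 3.87% at an unadjusted p under 0.05. Gene orientation was found at 8 of 18 resistant sites (44.4%) and 4 of 7 untreated sites (57.1%). That difference had Fisher exact p = 0.673 and, over 872 genes, an adjusted p of 1. The share of these genes that passed was 0% with adjustment and 2.41% without it. Both tests and the interval count sites, which are not independent within a tumour or a mouse. The 25 sites came from 18 tumours of 13 mice. Counted by tumour, 7 resistant tumours held a site in gene orientation, 8 held an opposite one, and 4 held both. In the untreated group these numbers were 4, 3 and 0. All 3 sites in the first 10 kb were opposite to the gene, 6 of 7 sites between 10 and 20 kb were in its orientation, and 5 of 7 sites between 30 and 40 kb were opposite. These differences along the gene were not tested. Several of the sites between 10 and 20 kb came from resistant 11 and 38, which shared a mouse.

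The share of tumours hit in Zfx was 21.6% in the resistant group (11 of 51, interval 11.3 to 35.3). It was 7.45% in the untreated group (7 of 94, interval 3.05 to 14.7), a difference of 14.1 percentage points. The odds ratio was 3.39 (95% interval 1.10 to 11.1), with Fisher exact p = 0.0183. After Benjamini-Hochberg adjustment over the 2558 gene regions hit in at least 5 tumours, p was 0.990, and 0% of these regions passed. At an unadjusted p under 0.05, 3.01% passed (77 regions), 2.35% with a higher share in resistant tumours (60 regions), and Zfx had the 22nd smallest p. Of the tested regions 53.1% were hit in a larger percent of resistant than of untreated tumours. The difference for Zfx thus did not pass over all regions.

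**Figure D2:**
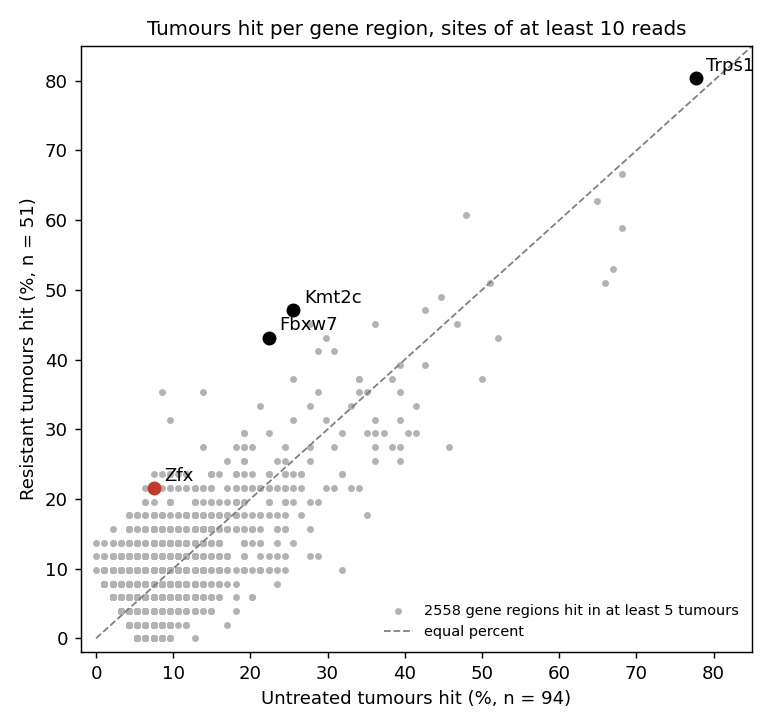
Percent of untreated tumours (x axis) and of resistant tumours (y axis) hit in each of the 2558 gene regions hit in at least 5 tumours (grey points), with Zfx in red and Trps1, Kmt2c and Fbxw7 in black. Zfx lies above the dashed line of equal percent, at 7.45% and 21.6%.

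Counted over mice the groups were closer. A mouse with more tumours has more chances to hold a hit one. The untreated group had 94 tumours from 23 mice and the resistant group 51 from 25. A Zfx-hit tumour was found in 8 of 25 resistant mice (32%, interval 14.9 to 53.5) and in 5 of 23 untreated mice (21.7%, interval 7.46 to 43.7; Fisher exact p = 0.523). The mean share of tumours hit per mouse was 19.3% ± 30.3 (SD, n = 25) and 9.47% ± 18.9 (SD, n = 23), a difference of 9.86 points (two-sided permutation over mice, 100000 resamples, p = 0.203). When the labels were permuted over mice on the share of tumours, p was 0.0405, unadjusted. Hit tumours gathered in some animals: resistant 8 and 10 shared a mouse, as did resistant 11 and 38, resistant 6 and 7, and untreated 29, 32 and 34. Without the mouse of resistant 8 and 10 the unadjusted Fisher exact p over tumours was 0.0532, without that of resistant 11 and 38 it was 0.0501, and without that of resistant 6 and 7 it was 0.0532. Without the mouse of untreated 29, 32 and 34 it was 0.00347.

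Hit tumours had more sites than the others, and untreated hit tumours also more reads. Libraries held 51 to 1604365 reads, with medians of 136932 for resistant and 48339 for untreated tumours. Median numbers of sites of at least 10 reads were 473 and 431. In the resistant group the 11 hit tumours had a median of 910 such sites (434 to 3320) and the other 40 had 405.5, with similar median reads (136932 and 131886.5). In the untreated group the 7 hit tumours had 1102 (377 to 3017) and the other 87 had 418, with median reads of 135478 and 43665. Per 10000 sites of at least 10 reads, 4.83 in resistant and 1.10 in untreated tumours lay in Zfx. The X chromosome as a whole held 4.19% and 4.16% of the sites. At most a set number of most-read sites was then taken from each tumour, without a read threshold. Libraries with fewer sites gave all of them. The difference between the groups shrank from 14.1 to 5.55 points at 100 sites (Fisher exact p = 0.279, unadjusted). There 5 of 51 resistant and 4 of 94 untreated tumours were hit, so the shares of both groups were lower. At 300 sites the difference was 6.45 points (Fisher exact p = 0.195, unadjusted). The adjusted p was 1 in both cases.

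The titles of the libraries had 4 forms, each of them within 1 group. Untreated libraries of the form TgTum were hit in 7 of 61 tumours (11.5%) and those of the form tgTum in 0 of 33, which allows a share of up to 10.6% (upper Clopper-Pearson limit). Resistant libraries of the form Tgtumor were hit in 9 of 35 tumours (25.7%) and those of the form Mouse in 2 of 16 (12.5%). Within each group, hits were less frequent in the forms with fewer sites: the median number of sites of at least 10 reads was 729, 258, 637 and 241.5 in that order. What a form stands for is not given in the sources used here, and form and group cannot be told apart. Resistant 11 and 38, of the same mouse, had titles of different forms.

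The difference between the groups in percentage points was smaller at high read thresholds, where fewer tumours of both groups counted as hit. At 1 read, the hit tumours numbered 15 of the resistant (29.4%) and 13 of the untreated group (13.8%). At 50 reads the numbers were 7 (13.7%) and 6 (6.38%), at 100 reads 5 (9.80%) and 5 (5.32%), at 500 reads 4 (7.84%) and 2 (2.13%), and at 1000 reads 1 (1.96%) and 2 (2.13%). Just inside the threshold of 10 reads lay sites of 11 reads (resistant 11), 13 reads (resistant 7), 13 reads (untreated 40) and 16 reads (resistant 8). Just outside it lay sites of 8 reads (resistant 38), 5 reads (resistant 20) and 4 reads (untreated 43 and untreated 22). In the untreated group the 7 hit tumours were the same number at 5 reads and at 10.

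**Figure D3:**
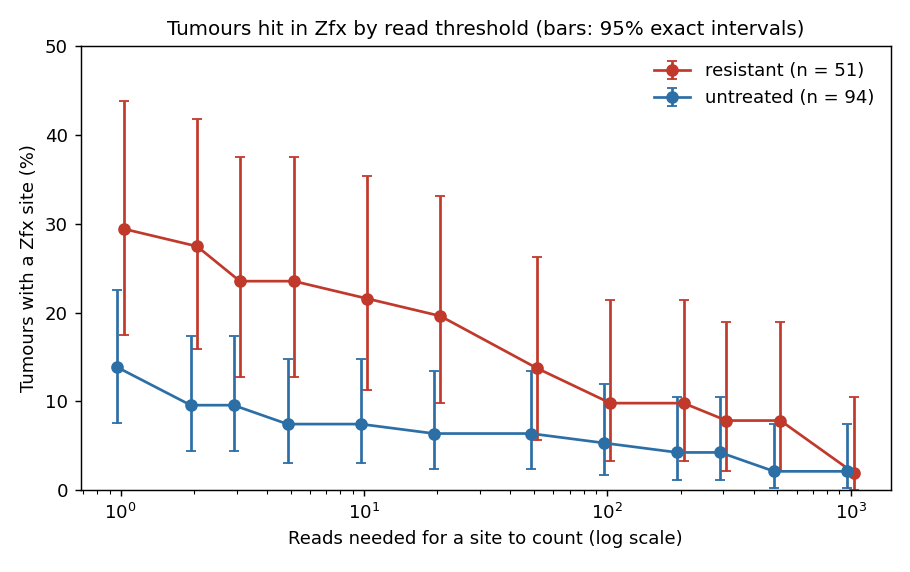
Percent of tumours with a Zfx site (y axis) by the number of reads needed for a site to count (x axis, log scale), for 51 resistant and 94 untreated tumours, with 95% exact intervals. The resistant share falls from 29.4% at 1 read to 1.96% at 1000 reads, and the untreated share from 13.8% to 2.13%.

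In 9 of the 18 hit tumours a Zfx site was among the 100 most read sites. Ranks count from 1 at the most read of the sites assigned to a tumour. Reads at the 18 resistant sites ran from 11 to 2801 with a median of 70.5, and at the 7 untreated sites from 13 to 1631 with a median of 310. In resistant 8 the site at 94087723 had 2801 reads, 1.90% of the library, and ranked 10th of 2141 sites kept in that tumour. In untreated 3 the site at 94097683 had 1631 reads, 0.390% of the library, and ranked 9th of 4103. Zfx thus held a site among the first 10 in 1 tumour of each group. A site among the first 100 was found in 5 resistant and 4 untreated tumours, the other 4 resistant ones being resistant 38 (773 reads, rank 30), resistant 10 (233 reads, rank 56), resistant 15 (522 reads, rank 66) and resistant 33 (96 reads, rank 90). In the untreated group these were also untreated 29 (310 reads, rank 14), untreated 56 (1020 reads, rank 39) and untreated 34 (109 reads, rank 43).

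The other hits ranked lower within their tumours. Many reads did not always give a high rank, as in resistant 48 (632 reads, rank 300 of 1076) and untreated 32 (363 reads, rank 120 of 934). In resistant 32 the site had 20 reads and ranked 1771 of 4621, and in resistant 7 it had 13 reads and ranked 857 of 1386. Untreated 40 had 13 reads at rank 400 of 743. Ranks overlapped between the groups. Per hit mouse, the mean log10 rank of the best site was 2.17 ± 0.742 (SD, n = 8) in resistant and 1.82 ± 0.848 (SD, n = 5) in untreated mice. That difference of 0.34 was within the spread between mice (exact permutation test over 1287 splits, two-sided, p = 0.451, smallest possible p 0.000777).

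**Figure D4:**
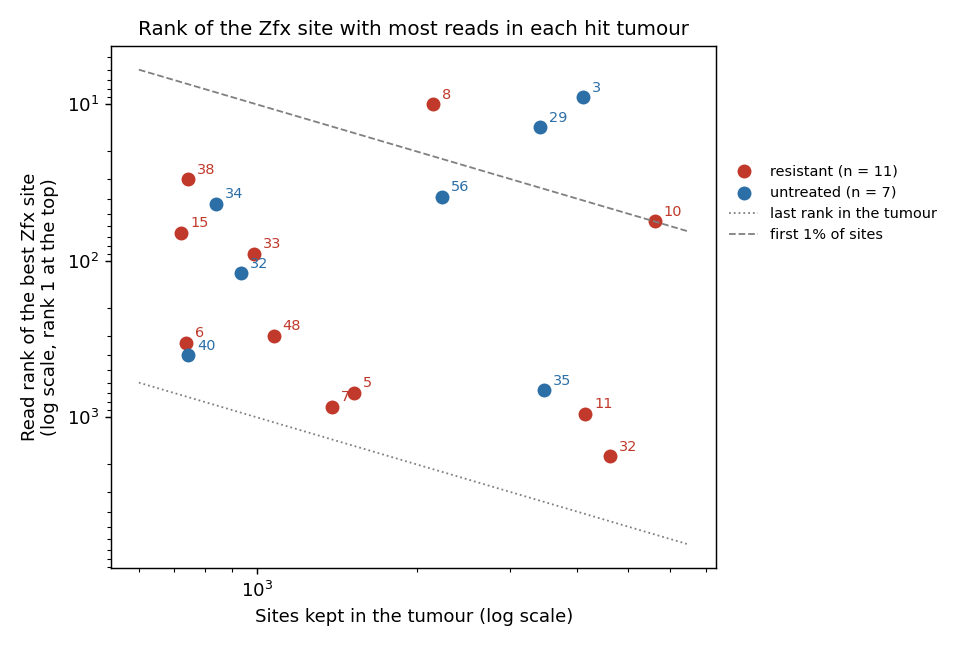
Read rank of the best Zfx site (y axis, log scale, rank 1 at the top) against the number of sites kept in the tumour (x axis, log scale) for the 11 resistant and 7 untreated hit tumours, numbered by tumour. The best ranks are 10 (resistant 8) and 9 (untreated 3), and the lowest-ranked is 1771 (resistant 32).

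Per hit mouse, sites lay a mean of 28.1 ± 7.95 kb (SD, n = 8) from the gene start in resistant mice and 16.2 ± 15.2 kb (SD, n = 5) in untreated mice. The difference of 11.9 kb did not pass an exact permutation test (two-sided, p = 0.0862). Its size depended on which mice and sites were counted. Without the untreated mouse of tumours 29, 32 and 34 the difference was 17.3 kb (exact permutation p = 0.0101, with 4 untreated mice left). It was 5.05 kb with sites of at least 1 read, 3.37 kb with 300 sites per tumour, and 2.06 kb with sites of at least 100 reads (exact permutation p = 0.8).

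Several Zfx sites in 1 tumour were found in the resistant group. There, 5 of the 11 hit tumours held 2 or 3 sites, and 4 of these held sites of both orientations, whereas each of the 7 untreated hit tumours held 1 site. The tumours with several sites were resistant 8, 10, 11, 15 and 38. Of these, 8 and 10 shared a mouse, as did 11 and 38, so they were not independent. Resistant 38 held 3 sites, with 773 reads opposite to the gene at 94082706 and 371 and 204 reads in its orientation at 94108397 and 94106763. Resistant 10 held 3 sites, with 233 reads at 94118604, 62 at 94106072 and 22 at 94091325. Resistant 15 held 522 reads at 94093285 and 77 at 94097434. Bulk DNA does not show whether such sites lay in the same cell. The number of sites per hit tumour was 1.64 in resistant and 1 in untreated tumours for Zfx, and it was also higher in resistant tumours for Trps1 (6.15 and 3.85), Kmt2c (3.58 and 1.46) and Fbxw7 (2.68 and 1.24).

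Beside each read count the deposited table gives a second whole number, never above the count and not defined in the file headers. It was 117 for the site of resistant 8, 21 for untreated 29, 11 for resistant 10 at 94118604 and 10 for untreated 3. It was 1 at 13 of the 18 resistant sites and at 2 of the 7 untreated sites, against 31761 of all 37281 resistant sites of at least 10 reads (85.2%) and 54857 of all 63785 untreated sites. Sites with a second number of 2 or more left 4 resistant tumours of 3 mice and 5 untreated tumours of 3 mice as hit. Sites of many reads could still have a second number of 1, as in untreated 56 with 1020 reads and resistant 48 with 632.

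Zfx was a short gene region among the most hit of the X chromosome. With 25 sites it stood 7th of 487 X-linked regions by sites, and 7th by tumours hit, a number it shared with Kdm6a (18 tumours each). The regions ahead of it by sites were Dmd (88 sites), Tenm1, Il1rapl1, Frmpd4, Il1rapl2 and Diaph2 (28 sites), each 718 to 2392 kb long. Zfx held 49.2 sites per 100 kb of its deposited region, which is shorter than its RefSeq span up to 94150645. The median was 3.90 over X-linked regions and 4.54 over all 13391 gene regions. Chromosome 10, where the median was 14.1, was left out of the following orders. Of 2193 regions hit in at least 5 tumours, Zfx was 6th by sites per 100 kb, after Trps1 (225), Pisd-ps3 (121), Kmt2c (52.8), Fbxw7 (51.3) and Pex2 (49.8). By the number of tumours hit, which favours long genes, it was 205th of 12557.

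Sites were sparser on both sides of the deposited region. In the 63.3 kb between Zfx and the next region above it, Eif2s3x, there were 4 sites of at least 10 reads (6.32 per 100 kb), 1 in a resistant and 3 in untreated tumours, with 15 to 66 reads. The longer RefSeq span of Zfx, up to 94150645, takes in 1 of these sites (94142028 in untreated 18, 21 reads). In the 99.2 kb below it there were 2 sites (2.02 per 100 kb), both in untreated tumours, with 399 and 247 reads. Of 13 gene regions within 1 Mb, 11 held a site, against 11111 of all 13391 gene regions. Their median was 2.73 per 100 kb, and 1 of the 13 reached the number of tumours needed for the test. This was Pola1, the catalytic subunit of DNA polymerase alpha, with 9 sites in 1 resistant and 7 untreated tumours (Fisher exact p = 0.261, adjusted p = 1). Eif2s3x, the X-linked copy of a translation initiation factor subunit, had 3 sites (11.6 per 100 kb).

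**Figure D5:**
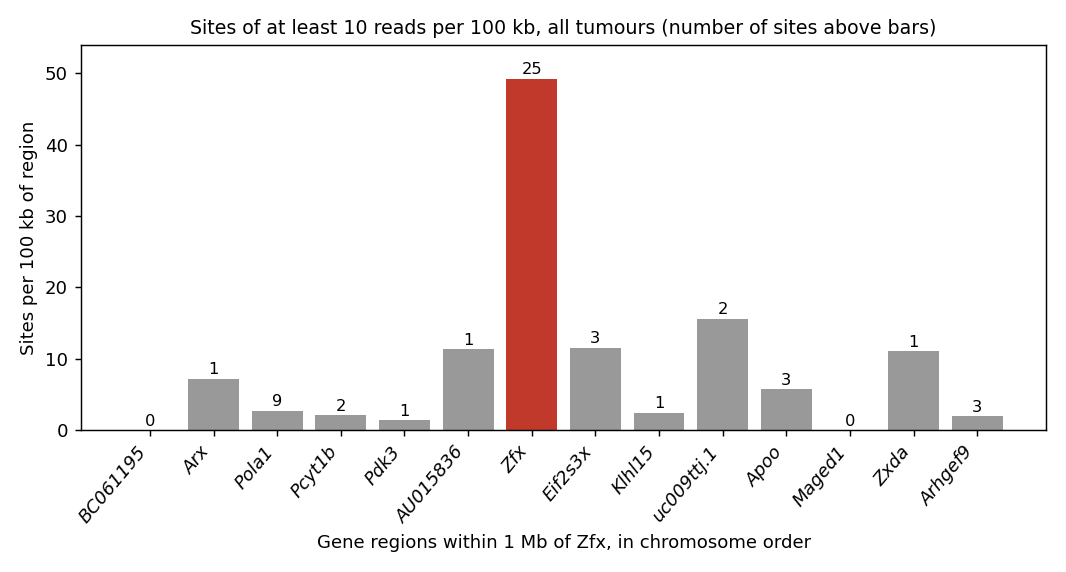
Sites of at least 10 reads per 100 kb of region (y axis) for Zfx, in red, and the 13 gene regions within 1 Mb of it in chromosome order, all tumours together, with the number of sites above each bar. Zfx has 49.2 sites per 100 kb and the median of the other 13 is 2.73.

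Few insertions were found in the other X-linked member of the family. Zfp711, a zinc finger protein that shares the ZFX type of activation domain, had 2 sites, in 0 resistant and 2 untreated tumours (5.47 per 100 kb). Zfy1, Zfy2 and Zfa were not analysed here. The 20 X-linked regulators of chromatin, RNA and growth set beside Zfx had a median of 5.46 sites per 100 kb, against 49.2 for Zfx, over the 17 that matched. All 17 held a site, against 403 of 487 X-linked and 11111 of all 13391 gene regions. Of the 17, 4 were tested, against 86 X-linked and 2558 of all regions, and 0 passed in each set. The share of hit tumours was higher in the resistant group for 8 of the 17 and lower for 9. The median difference was -0.17 points, against 0 over all gene regions. Kdm6a, an H3K27 demethylase that escapes X inactivation, had the most sites of the list, with 24 (20.2 per 100 kb) in 7 resistant (13.7%) and 11 untreated tumours (11.7%, Fisher exact p = 0.794, adjusted p = 1). Ddx3x, an RNA helicase, had the most sites per 100 kb (26.7), from 4 sites in 2 tumours of each group. Kdm5c, an H3K4 demethylase, was hit in 3 tumours of each group, Amer1, a brake on WNT signalling, in 2 and 4, and the chromatin remodeller Atrx in 1 and 4.

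Trps1, Kmt2c and Fbxw7, the recurrently hit genes set beside Zfx, were hit more often. For Trps1, a GATA-type repressor, 41 resistant (80.4%) and 73 untreated tumours (77.7%) had a site. Kmt2c, an H3K4 methyltransferase, was hit in 24 (47.1%) and 24 (25.5%), and Fbxw7, the substrate receptor of an SCF ubiquitin ligase, in 22 (43.1%) and 21 (22.3%). None passed after adjustment (Fisher exact tests, adjusted p = 1, 0.990 and 0.990). The median rank of the best site was 300 in resistant and 43 in untreated tumours for Zfx, 17 and 40 for Trps1, 53 and 361.5 for Kmt2c, and 141.5 and 204 for Fbxw7. The order of these medians for Zfx was thus the reverse of that for the other genes, a difference that was not tested. The medians count tumours, and untreated 29, 32 and 34 shared a mouse. Over hit mice the groups did not differ in the log10 rank of the best Zfx site (exact permutation test, p = 0.451).

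The genes whose hit tumours were most like those of Zfx were found by the Jaccard index, the number of tumours hit in both genes over the number hit in either, over all tumours and 731 gene regions outside chromosomes X and 10 hit in at least 10 tumours. The median index was 0.120. The highest were Lrrtm4, a synaptic leucine-rich repeat protein (0.320, 8 of its 15 hit tumours shared), Arhgap24, a Rac GTPase-activating protein (0.310, 9 of 20), and Tcf7l2, a transcription factor of the WNT pathway (0.296, 8 of 17). Nf1, which encodes the RAS brake neurofibromin, followed (0.294, 10 of 26), then Dach1, a transcriptional repressor (0.290, 9 of 22). Trps1, Kmt2c and Fbxw7 had 0.148, 0.179 and 0.220. The points of this index share libraries, and libraries with more sites are hit in more genes, so it is given without a test. In the resistant group Nf1 was hit in 9 of the 11 Zfx-hit tumours and in 9 of the 40 others, and in the untreated group in 1 of 7 and 7 of 87. Of the same 11 resistant tumours, Trps1 was hit in 11, Kmt2c in 8 and Fbxw7 in 8. Of all 51 resistant tumours, Trps1 was hit in 41, Kmt2c in 24, Fbxw7 in 22 and Nf1 in 18. Each of these genes, not Nf1 alone, was thus hit more often in the Zfx-hit tumours. Arhgap24 was hit in 7 of them, Tcf7l2 in 5, Dach1 in 5 and Lrrtm4 in 4. These 11 tumours came from 8 mice and had more sites than the other resistant tumours. The overlap with Nf1 was not tested.

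In the authors' deposited table Zfx had 24 insertions in resistant tumours, 11 in the orientation of the gene and 13 opposite, in 16 tumours (31.37%). The authors' deposited table gave it 15 insertions in untreated tumours, 6 and 9 by orientation, in 17 tumours (18.09%). The insertions equal the different sites at TTAA with at least 1 read in a tumour of the group, each counted once per group. The tumours equal all those with a read at such a site. Of those sites, 2 in resistant and 4 in untreated tumours were supported by 1 read only. The signed −log10 p score of the authors' deposited table was 18.1 in the resistant group, 24th of 13391 gene regions and 10th outside chromosome 10. In the untreated group the score of the authors' deposited table was 6.29, 179th and 17th outside chromosome 10. The scores come from groups of unequal size and depth and are not a comparison between them.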

How the data were processed

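Splinkerette PCR libraries of genomic DNA from 94 untreated and 51 resistant tumours were sequenced in 4 pools with paired reads of 100 bp, per the labels' protocols. Coordinates are mm10, per the submitters' processing notes. The aligner, site caller and filters are not given in the sources used here. Although ATAC-seq stands in the title of the series, its design text describes integration mapping. The deposited site table gave a whole-number read count per site and library, not normalised by the authors as far as the values show. A further deposited number per site, of another kind, is not defined in the file headers. The authors' deposited table of 13391 gene regions gave insertions, the percent of tumours hit and a signed −log10 p score per group. A further 580 columns of per-library values were not used.

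Zfx was found by identifier. Positions shared by libraries were kept in the tumour with most reads (551 tied positions were dropped, none in Zfx), which can favour deeper libraries, and a threshold of 10 reads left 101066 sites. Of the gene regions, 12384 identifiers matched RefSeq and 10943 regions got a strand. Groups came from the treatment labels and mice from the titles, which name 48 mice against 53 stated. Resistant 51, whose mouse number has 1 digit more than the others, was taken as a tumour of the mouse of resistant 50. An untreated library with R2 in its title, of the mouse and gland of another, was kept as a tumour. Shares were compared by two-sided Fisher exact tests with Benjamini-Hochberg adjustment (threshold 0.05), tested on simulated data, and by permutation over mice, in Python 3.11.15 with pandas 2.3.3, numpy 2.4.6 and scipy 1.17.1. Tumours of 1 mouse are not independent, so p-values over tumours are too small. Clopper-Pearson intervals cover counting error alone, over the tumours, mice or sites that were counted. PCR reads here carry no molecular identifiers, so that reads do not count molecules. The named genes were Zfx, its family, 20 X-linked regulators, all regions within 1 Mb, 3 recurrent genes and the 5 genes of highest Jaccard index. Zfx and these lists were chosen with earlier results of these data known. Alternatives changed the read threshold, the number of sites per tumour (100 or 300 most read, or 0.1% of reads), shared positions, the second number, title forms, shallow libraries and each hit mouse.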

Additional observations from a re-analysis of the deposited data

How the results depend on the processing

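The higher percent of hit tumours in the resistant group kept its direction under the 33 alternatives tried, from 2.52 points (second number of at least 2) to 21.6 points (untreated tgTum libraries only), with adjusted p from 0.196 to 1. With labels permuted over mice the difference of 14.1 points had p = 0.0405, unadjusted, in a permutation test. It was 4.48 points both at 100 reads and at 0.1% of the reads of a library, 5.55 with 100 and 6.45 with 300 sites per tumour, 5.05 with Mouse libraries only, and 14.04 without the R2 library. At 1000 reads, given as a level only, the direction was the opposite (1.96% against 2.13%). The number of genes passing the Fisher exact test was 0, and 77 at an unadjusted p under 0.05. It became 1 at 0.1% of reads, 1 with untreated tgTum libraries only, 14 with shared positions kept, and 69 with every TTAA site of at least 1 read kept in every tumour, an alternative chosen after seeing the data. The difference in percent of hit mice turned negative, at -1.04 points with a second number of at least 2, -1.33 with untreated TgTum libraries only and -3.56 with resistant Mouse libraries only, and the mean share per mouse at -1.21 points with a second number of at least 2. The share of sites in gene orientation crossed an even split, at 51.2% with 1 read, 58.3% with 100 reads, 54.5% with 0.1% of reads and 54.5% with Mouse libraries only. The difference in log10 rank became -0.17 with every TTAA site of at least 1 read. The difference in distance kept its direction but fell to 1.77 kb under that rule, 2.06 at 100 reads, 3.00 at 0.1% of reads, 3.37 with 300 sites per tumour, 4.76 with a second number of at least 2 and 5.05 at 1 read. The causes were not tested.

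Each hit mouse was also left out in turn, chosen after seeing the data. The differences then ran from 11.3 to 16.97 points for tumours, 7.43 to 13.8 for mice, 6.50 to 11.7 for the mean share per mouse, -22.2 to -3.30 for orientation between groups, 0.13 to 0.59 for log10 rank and 8.53 to 17.3 kb for distance. Gene orientation ran from 43.5% to 55% and the number of genes passing stayed at 0. With tgTum libraries only, orientation between groups, rank and distance have no value, since 0 untreated tumours were hit. No paired analysis was possible because no mouse, as named by the titles, gave tumours to both groups. Libraries of few reads limit what can be seen: a site under 10 reads is not counted.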

Other observations

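Below the threshold, 16 further Zfx sites had reads. The 8 in resistant tumours had 1 to 8 reads, 3 of them a single read, and lay in 6 tumours. The 8 in untreated tumours had 1 to 4 reads, 5 of them a single read, and lay in 7 tumours. Each of the 16 had a second deposited number of 1. In gene orientation were 5 of the 8 resistant and 4 of the 8 untreated sites.

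Reads at 8 Zfx positions appeared in more than 1 library. Beside the tumours to which these positions were assigned there were 19 further entries, 13 of them of a single read. The position 94113035, with 1020 reads in untreated 56, had a single read in each of 6 other untreated libraries. The position 94097683, with 1631 reads in untreated 3, had 4 reads in untreated 21 and 2 in untreated 9. The highest of the 19 entries was at 94090797, with 96 reads in resistant 33 and 33 reads in resistant 11, and the next highest had 4 reads.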
